A study of Mus musculus with 48 samples.

Results

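The genes of the proteasome were followed in the hippocampus of mice exposed to ethanol vapor. Members were the genes whose only symbol in the array's annotation was Psma, Psmb, Psmc or Psmd with a number, or Psme1, Psme3 or Psme4, and 40 of 18193 measured genes met this rule. Psmb8 and Psmb9 were left out of the rule, and Psme2 had no probe set of its own. The 40 genes comprised 8 of the 20S alpha ring (Psma1 to Psma8), 9 of the 20S beta ring (Psmb1 to Psmb7, Psmb10 and Psmb11), 6 ATPases of the 19S cap (Psmc1 to Psmc6), 11 non-ATPases of the 19S cap (Psmd1 to Psmd4, Psmd6 to Psmd8 and Psmd11 to Psmd14), 3 activators (Psme1, Psme3 and Psme4) and 3 assembly chaperones of the cap (Psmd5, Psmd9 and Psmd10).

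All 48 mice were male C57BL/6J adults, with 6 mice in each of 8 groups and 1 Affymetrix expression array per mouse. Chronic intermittent ethanol (CIE) mice spent 16 h daily in chambers held at 10 to 13 mg/l of ethanol vapor, in 4 cycles of 4 days of vapor and 7 days of abstinence, and were injected with ethanol at 1.6 g/kg before each cycle. Control (Ctrl) mice breathed air and were given saline in place of ethanol, and both treatments included the alcohol dehydrogenase inhibitor pyrazole at 1 mmol/kg, so no group was free of pyrazole. Harvests followed the final vapor session by 0 h, 8 h, 72 h or 7 d.

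The proteasome is the barrel-shaped protease that degrades ubiquitin-tagged proteins. Its 20S core is a stack of alpha rings, which gate the entry, and beta rings, which hold the cutting sites on Psmb5, Psmb6 and Psmb7. The 19S cap binds ubiquitin chains, unfolds substrates with its ring of ATPases and feeds them into the core, while the Psme proteins are alternative caps. Interferon induces Psmb8, Psmb9 and Psmb10, which take the places of Psmb5, Psmb6 and Psmb7 in the immunoproteasome, and also induces Psme1. In neurons the proteasome turns over synaptic proteins, and its genes are controlled together, in part by the transcription factor Nfe2l1.

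Promoter sequence was available from RefSeq (GRCm38.p6) for 33 of the 40 genes, as windows of 250 bases before to 50 bases after the start of transcription. Shown are the last 150 bases before the start of 3 members that differed between CIE and Ctrl, with Psmb8 from among the interferon-induced genes described further on. Psmb2 had no entry. The regions were chr11:70525207-70525356, plus strand for Psmb6, chr16:20651502-20651651, plus strand for Psmd2, chr11:80428465-80428614, plus strand for Psmd11 and chr17:34198045-34198194, plus strand for Psmb8. Capitals mark only the following, and other motif matches in these stretches are in lower case: a TGACNNNGC match (the antioxidant response element, which Nfe2l1 and Nfe2l2 bind) in Psmb6, a CCGGAAG match on the opposite strand (the motif of ETS factors) in Psmd2 and Psmd11, and a TTCNNNGAA match (the gamma-activated site, which STAT factors bind) in Psmb8.
Psmb6: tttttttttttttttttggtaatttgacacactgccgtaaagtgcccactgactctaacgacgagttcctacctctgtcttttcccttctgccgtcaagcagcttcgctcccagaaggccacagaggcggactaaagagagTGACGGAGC
Psmd2: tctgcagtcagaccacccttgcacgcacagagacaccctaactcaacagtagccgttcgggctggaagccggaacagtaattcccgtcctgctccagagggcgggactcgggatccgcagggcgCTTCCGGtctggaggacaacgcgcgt
Psmd11: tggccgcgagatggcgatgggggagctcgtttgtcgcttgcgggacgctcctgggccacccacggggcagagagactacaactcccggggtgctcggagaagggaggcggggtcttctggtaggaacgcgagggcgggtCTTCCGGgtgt
Psmb8: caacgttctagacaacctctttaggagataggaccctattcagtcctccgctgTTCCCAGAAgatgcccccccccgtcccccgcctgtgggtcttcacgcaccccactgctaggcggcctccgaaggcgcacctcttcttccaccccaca

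Both strands of the whole window were searched for 6 motifs. A member counted if any of its promoters held a match. The shares of all are of single promoters, 32851 for 27025 gene symbols, so the units of the counts and shares differ. CCGGAAG was in the promoters of 12 of the 33 members and in 8.86% of all 32851 promoters. GGGCGG, the GC box, was in 20 of the 33 members and 35.7% of all promoters, and CCAAT was in 13 members and 37.4% of all. TGACNNNGC was in 6 members (Psmb5, Psmb6, Psmc6, Psmd9, Psmd12 and Psme4) and 12.4% of all promoters. The interferon-stimulated response element (GAAA, any 2 bases, GAAA) was in 4 members and 3.44% of all promoters. One of the 4 was Psme1, with TTTCGCTTTC on the opposite strand from position 10 after the start. TTCNNNGAA was in 1 member, Psmd2, and 8.3% of all promoters. The match shown for Psmb8 was not shared by the other interferon-induced genes read here. The last 150 bases before the start of Psmb9, Psmb10 and Psme1 held no TTCNNNGAA and no interferon-stimulated response element. These matches are descriptions of sequence only.

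Averaged over all 40 genes, CIE and Ctrl mice lay close to each other at every time. The mean log2 expression over the 40 genes was 10.71 ± 0.039 (SD, n = 6) in Ctrl and 10.68 ± 0.030 in CIE mice at 0 h, and 10.69 ± 0.039 and 10.70 ± 0.022 at 8 h. It was 10.69 ± 0.029 and 10.68 ± 0.048 at 72 h, and 10.67 ± 0.038 and 10.67 ± 0.047 at 7 d. At every time the ranges of CIE and Ctrl mice overlapped, and their means differed by no more than 0.028. The values are log2 intensities normalised by robust multi-array average (RMA), on which a difference of 1 is a doubling. Because the tissue was whole hippocampus, fewer cells of a type and less RNA per cell cannot be told apart.

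CIE and Ctrl mice were compared at each time with limma, and a gene was called at an adjusted p, the false discovery rate (FDR), of 0.01 or less over all 45037 probe sets. Of the 40 members, 2 were called, both of them at 8 h, and the counts for 0 h, 72 h and 7 d were 0. Over all 18193 genes, 1.64%, 2.29%, 0.0055% and 1.03% were called at the 4 successive times. Both calls at 8 h were higher in CIE mice, as were 1.6% of all genes. At an unadjusted limma p under 0.05, 1 member was higher and 5 were lower at 0 h, where 14.2% of all genes were higher and 4.41% lower. At 8 h 5 were higher and 5 lower, beside 9.51% and 8.91%. At 72 h 1 was higher and 4 lower, beside 5.08% and 2.5%, and at 7 d 1 was higher and 3 lower, beside 14.2% and 4.48%. At an FDR of 0.05 the count became 5 at 8 h and 1 at 7 d, beside 5.35% and 4.8% of all genes. The median difference over the members, in order of time, was -0.027, -0.0020, 0.0012 and -0.013, beside 0.041, 0.0057, 0.013 and 0.028 for all genes. All 160 differences lay between -0.23 (Psmb7 at 0 h) and 0.26 (Psmb2 at 8 h). The 95% confidence interval of the difference lay within 0.3 of 0 for 37, 35, 36 and 36 of the 40 members at 0 h, 8 h, 72 h and 7 d, and for 40 of 40 when the CIE effect was averaged over the 4 times.

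**Figure D1:**
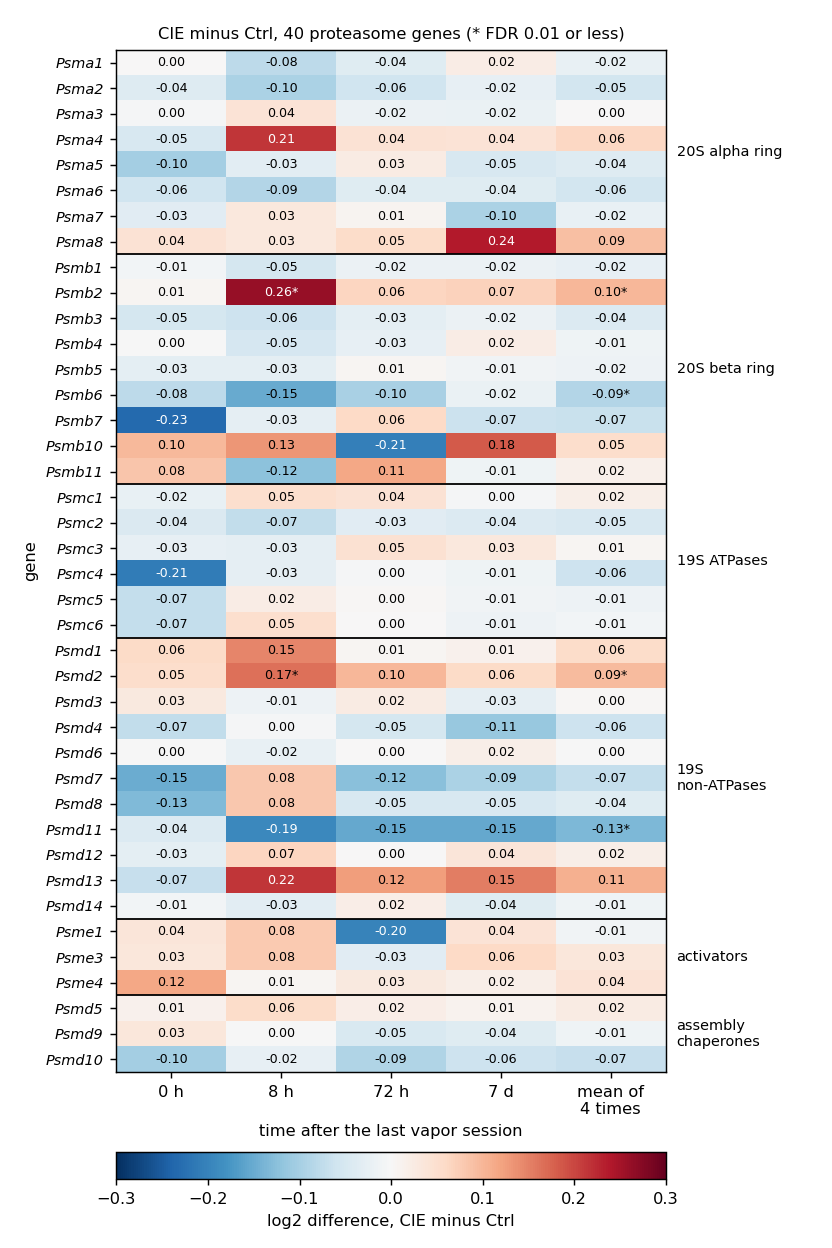
Log2 difference, CIE minus Ctrl, of each of the 40 genes (rows, by class) at 4 times and for their mean (columns), with red higher and blue lower in CIE mice and an asterisk for an FDR of 0.01 or less. Most cells are pale, and the 6 asterisks fall on Psmb2, Psmd2, Psmb6 and Psmd11.

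Averaged over the 4 times, 4 members were called, 2 higher (Psmb2 and Psmd2) and 2 lower (Psmd11 and Psmb6), while 7.9% of all genes were called in this comparison, 5.99% higher and 1.91% lower. At an FDR of 0.05, 7 members and 15.5% of all genes were. The moderated F test over the 4 times called the same 4 members and 6.23% of all genes. Each of the 4 had the same sign at all 4 times, which adds no separate support, since the average was made from these same differences. Of the 40 members, 6 were higher and 10 lower in CIE mice at all 4 times, with 24 mixed. The share of all genes with the same sign at all 4 times was not computed, so these counts have no reference.

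Psmb2 encodes a beta-ring subunit without a cutting site. At 8 h its log2 level in Ctrl mice was lowest at 10.91, median 11.03 and highest at 11.06, and in CIE mice 11.12, 11.28 and 11.35. Every CIE mouse was above every Ctrl mouse, a separation found in either direction for 3.62% of all genes at 8 h. Of the 40 members, Psma4 and Psmb2 separated at 8 h, Psmd2 at 72 h and 0 at 0 h and 7 d, where 1.63% and 1.35% of all genes did. The difference was 0.26 ± 0.043 (SE), or 1.20-fold, with an adjusted p of 0.000125 by limma. It was above 0 in each of the 6 hybridization sets, groups of arrays that were normalised together as read from values they share, from 0.064 to 0.45. When only the 12 arrays at 8 h were fitted, the adjusted p was 0.0105 and the call was lost. At 0 h the difference was 0.0052 ± 0.043 (adjusted p = 0.969), with Ctrl mice between 11.03 and 11.26 and CIE mice between 11.04 and 11.21. The differences at 72 h and 7 d were 0.065 and 0.070, with adjusted p of 0.699 and 0.385, and the groups overlapped at both. The change in the CIE effect from 0 h to 8 h was 0.26 ± 0.061 (adjusted p = 0.0480), above the threshold used. The mean of the Ctrl mice at 8 h minus that at 0 h was -0.11 (adjusted p = 0.147). Averaged over the 4 times the CIE effect on Psmb2 was 0.10 ± 0.022 (adjusted p = 0.000731).

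Psmd2 encodes the large non-ATPase of the cap that docks ubiquitin-carrying shuttle proteins. Its level at 8 h was 11.32 at the lowest, 11.46 at the median and 11.51 at the highest in Ctrl mice, and 11.50, 11.61 and 11.66 in CIE mice. Among the 36 possible pairings between groups, CIE exceeded Ctrl in 35. The difference was 0.17 ± 0.038, or 1.12-fold (adjusted p = 0.00476). It was above 0 in 5 of 6 hybridization sets. At 72 h Ctrl mice lay between 11.44 and 11.52 and CIE mice between 11.53 and 11.63, with no overlap. Of all genes, 1.18% separated in either direction at 72 h. That difference was 0.10 ± 0.038 and was not called (adjusted p = 0.331). At 0 h and 7 d the differences were 0.053 and 0.057, neither called. Averaged over the 4 times it was 0.094 ± 0.019 (adjusted p = 0.000293). The call at 8 h was lost without any 1 of Ctrl mouse 4 or 79 or CIE mouse 21, 23, 25 or 69, with an adjusted p of up to 0.0262, with hybridization sets as a block (0.0121) and with only the 12 arrays at 8 h fitted (0.0681). Averaging Psmd2 with its dim further probe set, whose mean was 3.81, lowered the difference at 8 h to 0.072 (adjusted p = 0.339) and the average over the times to 0.059, and neither was then called.

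Psmd11 encodes the non-ATPase that clamps the cap onto the core. Averaged over the 4 times it was lower in CIE mice by a difference of -0.13 ± 0.024, or 1.10-fold (adjusted p = 5.67e-05). At 8 h its level in Ctrl mice was 11.75, 12.00 and 12.09 (lowest, median and highest) and in CIE mice 11.71, 11.77 and 11.86. The groups overlapped only through Ctrl mouse 4, the lowest of its group. The difference at 8 h was -0.19 ± 0.048 with an adjusted p of 0.01003, just outside the threshold. It was above 0 in 1 of 6 hybridization sets. Without Ctrl mouse 4 it was -0.23 (adjusted p = 0.000698). At 72 h and 7 d the differences were both -0.15, with adjusted p of 0.219 and 0.0457. At 7 d the Ctrl mice spanned 11.92 to 12.09 and the CIE mice 11.74 to 11.94, and CIE was lower in 34 of the 36 pairings. At 0 h the difference was -0.040 (adjusted p = 0.709), with Ctrl mice between 11.91 and 12.01 and CIE mice between 11.80 and 12.05.

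Psmb6 encodes the beta-ring subunit that carries the caspase-like cutting site. Averaged over the 4 times it was lower in CIE mice by a difference of -0.087 ± 0.019, or 1.06-fold (adjusted p = 0.000885). At 8 h it was 11.42, 11.55 and 11.59 in Ctrl mice and 11.32, 11.37 and 11.43 in CIE mice. CIE was lower in 35 of the 36 pairings, and the difference of -0.15 ± 0.038 missed the threshold (adjusted p = 0.0119). It was -0.078, -0.098 and -0.020 at 0 h, 72 h and 7 d, none of them called.

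**Figure D2:**
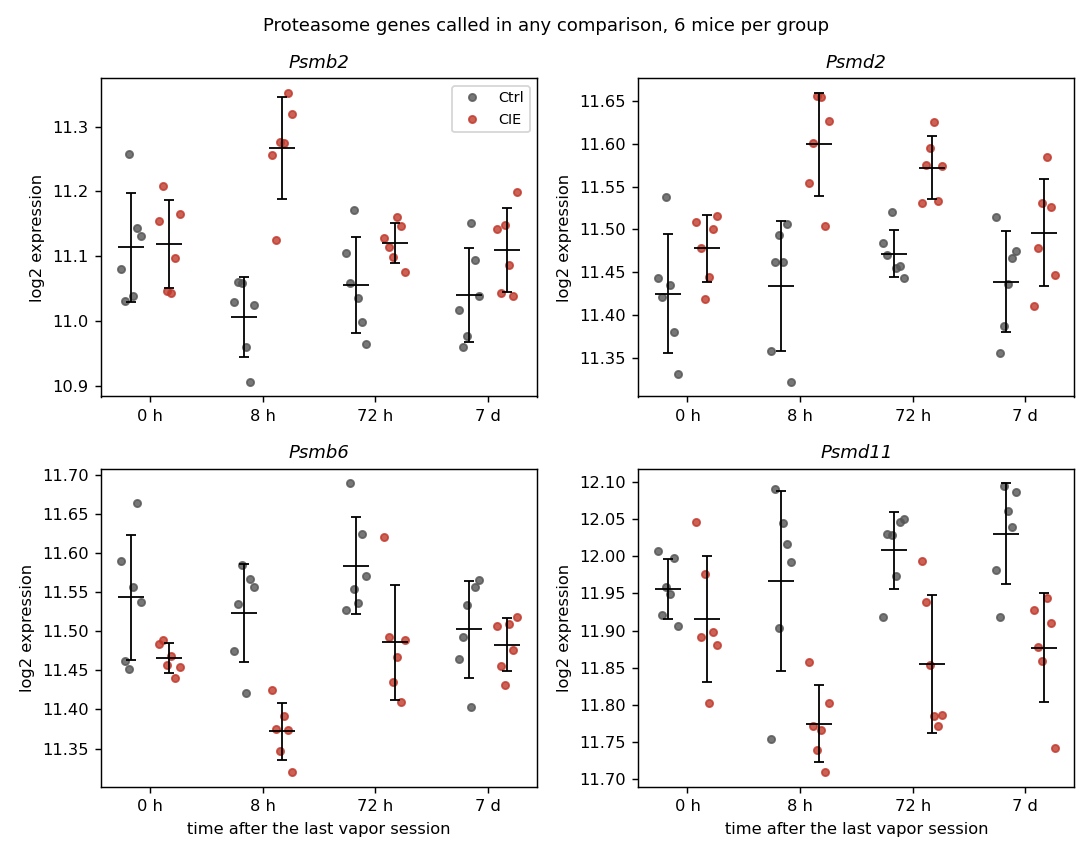
Log2 expression (vertical axes) of the 4 called genes in each mouse, by time after the last vapor session (horizontal axes), for Ctrl (grey) and CIE (red) mice, with bars for mean and SD of 6 mice. At 8 h Psmb2 separated completely, between 10.91 and 11.06 in Ctrl and 11.12 and 11.35 in CIE mice.

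Markers of cell types and of nuclear RNA were read beside these results. At 8 h all 5 measured oligodendrocyte markers had positive differences, with 0 called and a median of 0.18, and their mean level ran from 10.64 to 11.33 in Ctrl and 10.94 to 11.43 in CIE mice. At 8 h 0 of the 10 neuronal, 6 astrocyte and 11 microglial markers were called. Of 5 endothelial, 6 choroid plexus and 4 blood markers, 0, 0 and 1 were called at that time, the last being Ptprc, a leukocyte gene that microglia also express. Averaged over the 4 times, 1 neuronal, 1 microglial, 1 endothelial, 1 choroid plexus and 1 blood marker were called, each higher in CIE mice. No astrocyte or oligodendrocyte marker was called on average, beside 7.9% of all genes. The level of Malat1, a noncoding RNA kept in the nucleus, was 10.36 ± 0.63 (SD, n = 24) in Ctrl and 9.65 ± 0.53 in CIE mice over its 7 probe sets. Deviations of Psmd11 from its group means followed those of Malat1 over the 48 mice, with a Pearson r of 0.465 (permutation p = 0.00646, adjusted 0.0130) and a Spearman rho of 0.409 (p = 0.0109, adjusted 0.0273). Without the 2 mice farthest in Malat1, r was 0.506. For Psmb2, Psmd2 and Psmb6 r was 0.019, 0.132 and 0.048, with permutation p of 0.901, 0.432 and 0.747 (adjusted 0.901, 0.540 and 0.830), and rho 0.0040, 0.075 and 0.0017. Adjustment was over 10 such relations, and the part of Malat1 or of the marker lists in the differences was not tested.

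Outside the 4 called genes, the alpha ring held 1 gene near the threshold. Psma4, which helps to form the gate of the core, was 11.19, 11.40 and 11.44 (lowest, median and highest) in Ctrl mice at 8 h and 11.51, 11.59 and 11.61 in CIE mice, with no overlap. Its difference of 0.21 ± 0.057 was not called (adjusted p = 0.0182), and at 0 h the difference was -0.047. Psma2 had negative differences at all 4 times, with -0.055 on average (adjusted p = 0.0270). Psma8, which replaces an alpha subunit in the testis, had the highest difference of any member at 7 d, 0.24 ± 0.090 (adjusted p = 0.110). Its mean of 4.66 was above only 22.8% of probe sets, and that of Psmb11, the beta subunit of the thymus, was 4.30 and above 17.0%. No detection calls were used, and whether these 2 levels stand above background was not tested.

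In the beta ring, of the subunits with a cutting site other than Psmb6, neither was called. Psmb7, with the trypsin-like site, was 9.42, 9.53 and 9.73 in Ctrl mice at 0 h and 9.17, 9.28 and 9.56 in CIE mice. That difference was the lowest of any member at -0.23 ± 0.074 (adjusted p = 0.0510), with overlapping groups. Psmb5, with the chymotrypsin-like site, had differences between -0.030 and 0.0069 and adjusted p of 0.798 or more. The remaining beta genes, Psmb1, Psmb3 and Psmb4, stayed within 0.07 of 0 at every time on the probe sets used. A further probe set of Psmb3, described below, differed more. Psmb11, at the low level given above, had differences from -0.12 at 8 h to 0.11 at 72 h, none called.

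The 6 ATPases of the cap all had negative differences at 0 h, with a median of -0.057, while 65.3% of all genes were positive at that time. This lean was shared, as 27 of the 40 members were negative at 0 h. By class these were 6 of 8 alpha-ring genes, 6 of 9 beta-ring genes and 8 of 11 non-ATPases, with 1 of 3 chaperones and 0 of 3 activators. None of the 6 ATPases was called. The mean over the 6 genes was 11.44, 11.51 and 11.53 (lowest, median and highest) in Ctrl and 11.39, 11.43 and 11.44 in CIE mice at 0 h. The groups overlapped only through Ctrl mouse 2, the lowest of its group. The difference of -0.074 was below 0 in all 5 hybridization sets that held a mouse of both groups at 0 h, from -0.14 to -0.033. Ctrl mouse 2 was placed in no set, as its values carry fewer decimals than the others and could share few exactly. This count therefore leaves out the mouse through which the groups overlapped. Psmc4 had the lowest value, -0.21 ± 0.068 (adjusted p = 0.0566), with 11.14, 11.38 and 11.55 in Ctrl and 11.08, 11.15 and 11.35 in CIE mice. The Ctrl mice at 0 h had the highest mean of the 8 groups, 11.49, against 11.43 to 11.44 in the Ctrl groups of the later times, and the CIE mice at 0 h had 11.42. Of the 6 genes, 6, 5 and 6 were lower in Ctrl mice at 8 h, 72 h and 7 d than at 0 h, with 0 called. All 5 measured oligodendrocyte markers also had negative differences at 0 h, with a median of -0.083, and so had 5 of 6 astrocyte markers, with a median of -0.062. None of these was called, and their part in the ATPase difference was not tested. The mean level of the oligodendrocyte markers ran from 10.70 to 11.49 in Ctrl and from 10.88 to 11.11 in CIE mice. At 8 h, 72 h and 7 d the mean over the ATPases differed by -0.00047, 0.0093 and -0.0088. Psmc2 had negative differences at all 4 times, with -0.048 ± 0.016 on average (adjusted p = 0.0280).

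**Figure D3:**
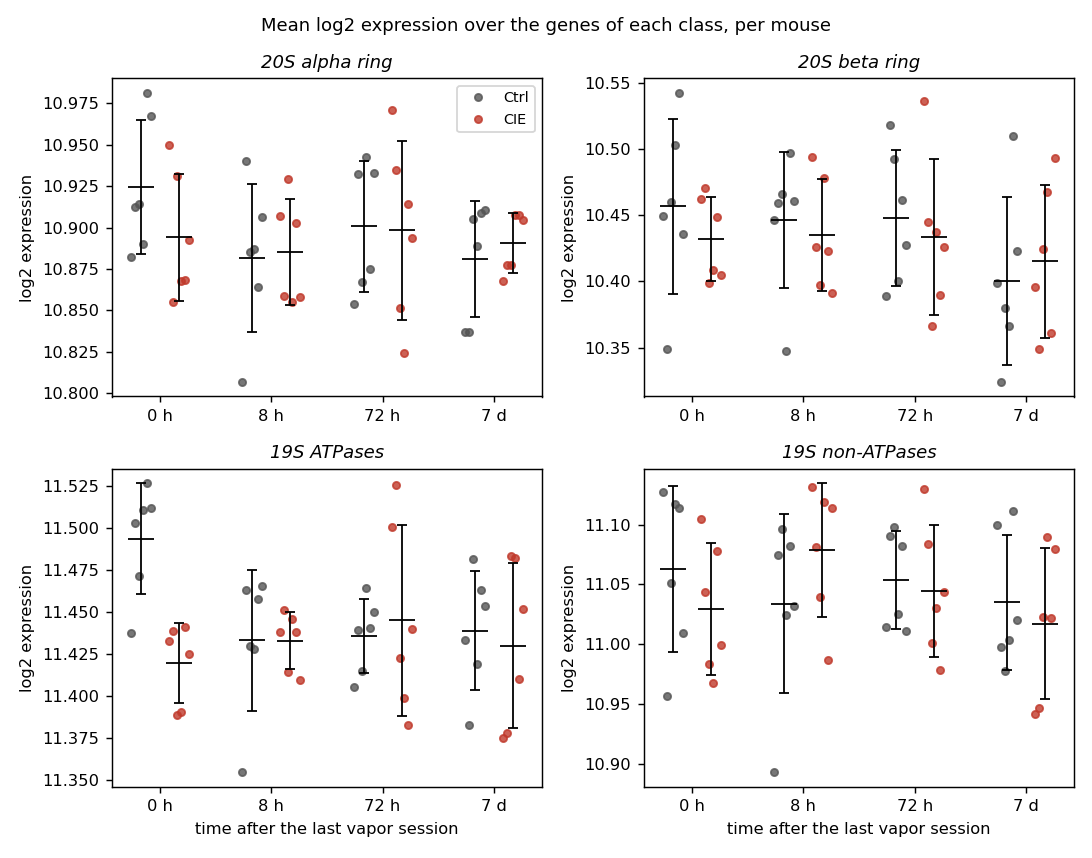
Mean log2 expression over the genes of 4 classes (vertical axes) in each mouse, by time after the last vapor session (horizontal axes), for Ctrl (grey) and CIE (red) mice, with bars for mean and SD of 6 mice. The ATPases at 0 h show 11.44 to 11.53 in Ctrl and 11.39 to 11.44 in CIE mice, and the other class means overlap broadly.

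Among the other non-ATPases, Psmd13 had the highest average difference, 0.11 ± 0.053 (adjusted p = 0.169), and at 8 h 0.22 ± 0.11 (adjusted p = 0.271). Its Ctrl mice ranged from 8.84 to 9.38 at 8 h and its CIE mice from 9.12 to 9.51. The chaperones Psmd5, Psmd9 and Psmd10 had 0 calls at any time, and Psmd10, known as gankyrin, had negative differences at all 4 times with an average of -0.070 (adjusted p = 0.101). Of the related genes outside the rule, 0 of 5 measured assembly factors were called at any time or on average, and the F test called Psmg2 (adjusted p = 0.00770). Of 12 proteasome-bound and shuttle proteins, the shuttle Ubqln4 was called on average (0.15 ± 0.040, adjusted p = 0.00702), and of 7 regulators of proteasome genes, Nfe2l2 was (0.18 ± 0.049, adjusted p = 0.00517). Of 6 genes for ubiquitin and its activation, Uba6 alone had a probe set of its own. Its differences were -0.25 at 0 h and 0.25 at 8 h, and the F test called it (adjusted p = 0.00528). Beside these calls in the related lists, 6.23% of all genes were called by the F test and 7.9% on average over the 4 times.

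Among Ctrl mice, compared between harvests, no member was called. Of the 40, 0 were called between Ctrl mice at 8 h, 72 h or 7 d and Ctrl mice at 0 h, beside 0.456%, 0.445% and 0.264% of all genes. At an unadjusted p under 0.05, 0 were higher in these comparisons, beside 14.6%, 14.5% and 7.76% of all genes, and 6, 5 and 0 were lower, beside 2.87%, 2.92% and 5.77%. The 3 comparisons share the Ctrl mice at 0 h. A change in the CIE effect was called for 0 members from 0 h to 8 h, from 8 h to 72 h and from 0 h to 7 d, beside 0.033%, 0.011% and 0.066% of all genes, with 6, 5 and 1 members at an unadjusted limma p under 0.05, beside 12.2%, 9.18% and 9.97% of all genes. At an FDR of 0.05, 1 member (Psmb2) and 0.478% of all genes changed from 0 h to 8 h.

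The interferon-induced subunits were read next, as Psmb10 and Psme1 are members and Psmb8 and Psmb9 are their partners outside the rule. At 8 h Psmb8 was 7.75, 8.67 and 9.54 (lowest, median and highest) in Ctrl mice and 9.44, 9.68 and 10.15 in CIE mice. Psmb9 was 7.20, 8.05 and 8.72 in Ctrl and 8.71, 9.05 and 9.49 in CIE mice. For both genes the highest Ctrl mice overlapped the lowest CIE mice. Psmb8 rose by a difference of 1.10 ± 0.22 (adjusted p = 0.000992) and Psmb9 by 1.10 ± 0.20 (adjusted p = 0.000376), 2.14-fold and 2.15-fold. Both genes were higher in CIE mice in 5 of 6 hybridization sets at 8 h and in 4 of 5 at 0 h. At 0 h they differed by 0.87 (adjusted p = 0.0111, not called) and 0.91 (adjusted p = 0.00432, called), at 72 h by -0.11 and -0.12, neither called. At 7 d they differed by 0.44 and 0.45, again not called (adjusted p = 0.239 and 0.179), but for both genes every CIE mouse was above every Ctrl mouse, a separation found for 1.35% of all genes at that time, and the difference was above 0 in 6 of 6 hybridization sets. Of 9 measured genes of interferon-induced peptide processing, these included, 4 were called higher at 0 h and 9 at 8 h, beside 1.64% and 2.29% of all genes called in either direction. At 72 h 0 were called and 2 of 9 differences were positive, with a median of -0.11. At 7 d 0 were called, but all 9 were positive, with a median of 0.36. Of all genes 0.0055% and 1.03% were called at those times. The mean level over the 9 genes in Ctrl mice was 7.89, 8.23, 8.00 and 7.41 at the 4 successive times. In CIE mice at 7 d it was 7.77, above the Ctrl mice of 7 d but below those of the earlier times. Between Ctrl mice, all 9 genes were lower at 7 d than at 0 h, with a median of -0.45 and 0 called, beside 0.264% of all genes. Of the 11 measured microglial markers, 9 had positive differences at 0 h (median 0.15), 9 at 8 h (0.072), 0 at 72 h (-0.16) and 10 at 7 d (0.20), with 1 called, Tmem119 at 7 d. Their mean level at 8 h ran from 9.30 to 9.53 in Ctrl and from 9.30 to 9.66 in CIE mice, and at 7 d from 9.04 to 9.38 and from 9.21 to 9.70. Of the 5 endothelial markers, 4, 3, 1 and 5 had positive differences at the 4 successive times, with medians of 0.11, 0.016, -0.077 and 0.32. At 7 d 6 of 6 astrocyte, 7 of 10 neuronal, 5 of 6 choroid plexus and 4 of 4 blood markers were positive, and 0 of 5 oligodendrocyte markers. The part of any of these markers in the differences of Psmb8 and Psmb9 was not tested.

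Psmb10 and Psme1 had smaller differences. Psmb10 at 8 h was 9.79, 10.11 and 10.41 in Ctrl and 10.04, 10.22 and 10.48 in CIE mice, a difference of 0.13 ± 0.094 (adjusted p = 0.501). Psme1 was 9.95, 10.30 and 10.52 in Ctrl and 10.23, 10.40 and 10.45 in CIE mice, a difference of 0.079 ± 0.067 (adjusted p = 0.593). The groups overlapped for both. At 72 h both differences were negative and not called, -0.21 for Psmb10 (adjusted p = 0.490) and -0.20 for Psme1 (adjusted p = 0.264), a time at which all 11 measured microglial markers also had negative differences. The mean level of these markers was then 9.23 to 9.55 in Ctrl and 9.08 to 9.36 in CIE mice. Of 5 oligodendrocyte, 5 endothelial, 6 astrocyte and 10 neuronal markers, 0, 1, 3 and 7 had positive differences at 72 h. The part of any of these markers in the differences of Psmb10 and Psme1 was not tested.

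The gap between the partners was tested within each mouse, as the log2 level of 1 gene minus that of the other, and CIE and Ctrl mice were compared by exact two-sided permutation (924 arrangements at each time). At 8 h the CIE effect on Psmb8 exceeded that on Psmb10 by 0.97 ± 0.27 and that on Psme1 by 1.02 ± 0.27, with exact p of 0.00216 and 0.00433. For Psmb9 the excess was 0.97 ± 0.24 over Psmb10 and 1.02 ± 0.25 over Psme1, both with an exact p of 0.00216, the smallest this design allows. All 4 were 0.00866 after adjustment over 16 tests. At 0 h the 4 excesses lay between 0.77 and 0.88 with adjusted p of 0.00866 to 0.0115, and at 72 h between 0.083 and 0.094 with an adjusted p of 0.515 for each. At 7 d the excess over Psme1 was 0.40 for Psmb8 (adjusted p = 0.0139) and 0.41 for Psmb9 (adjusted p = 0.00866), and that over Psmb10 was 0.26 (adjusted p = 0.107) and 0.27 (adjusted p = 0.0504).

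Within groups, Psmb10 and Psme1 covaried with Psmb8 and Psmb9 from mouse to mouse. Deviations of Psmb10 from its group means had a Pearson r of 0.582 with the mean of the Psmb8 and Psmb9 deviations over 48 mice (permutation p = 9e-05, adjusted 0.0003) and a Spearman rho of 0.505 (p = 0.00113, adjusted 0.00377). For Psme1 r was 0.677 (permutation p = 5e-05, adjusted 0.00025) and rho 0.629 (p = 5e-05, adjusted 0.00025). Without the 2 mice farthest in Psmb8 and Psmb9, r was 0.475 and 0.570. With hybridization sets removed, over the 47 arrays with a set, r was 0.575 and 0.663. Both values of a mouse come from the same array.

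**Figure D4:**
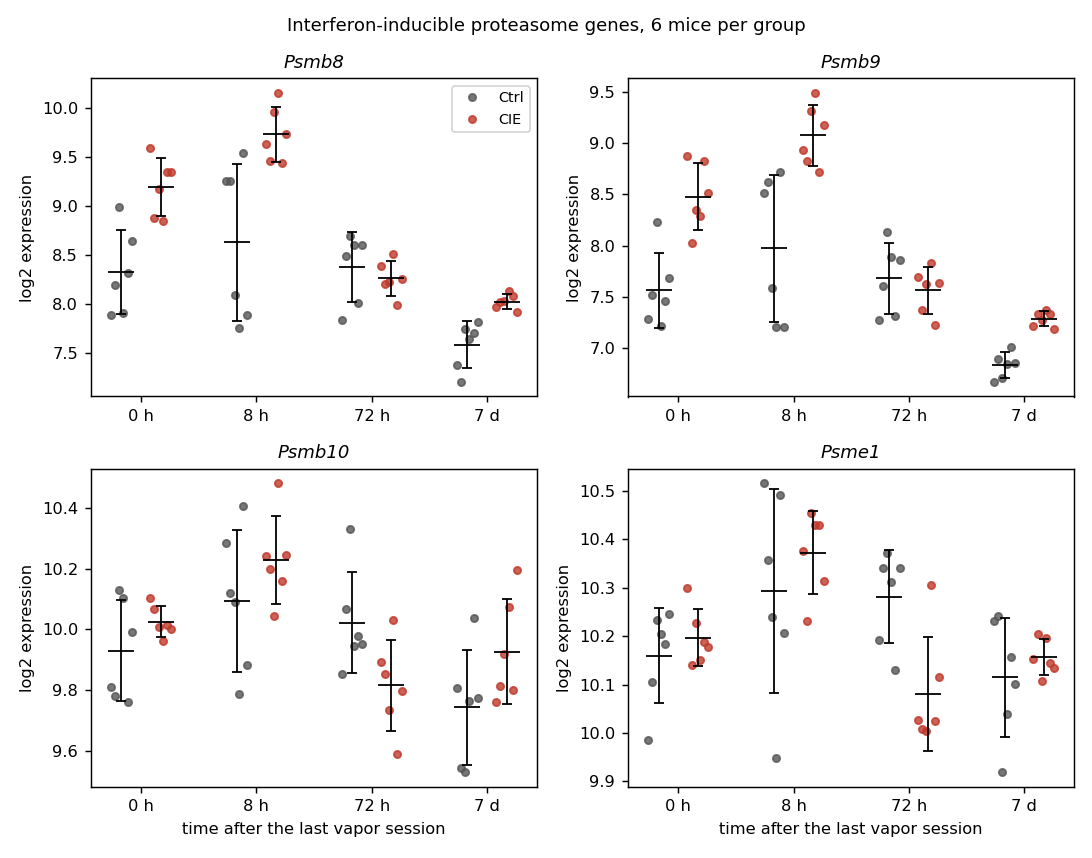
Log2 expression (vertical axes) of Psmb8, Psmb9, Psmb10 and Psme1 in each mouse, by time after the last vapor session (horizontal axes), for Ctrl (grey) and CIE (red) mice, with bars for mean and SD of 6 mice. Psmb8 and Psmb9 differ by 1.10 at 8 h, and Psmb10 and Psme1 by 0.13 and 0.079.

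The members as a whole also varied together from mouse to mouse within groups. The median Pearson r over the 780 pairs of members was 0.192, with 562 pairs above 0, beside 0.030 over all pairs of genes, and with hybridization sets removed it was 0.198. The pairs of all genes were not matched to the members in expression level. Whether the higher r is particular to the proteasome was not tested. Within classes the median was 0.225 for the alpha ring, 0.288 for the beta ring, 0.25 for the ATPases and 0.259 for the non-ATPases. Psmd4, a ubiquitin receptor, followed the mean of the other members most closely (r = 0.782), and Psmc3 came next (r = 0.776). Psmc4 went the opposite way (r = -0.358), and Psma8, Psme4, Psma1 and Psma5 were also below 0. The mean of the 40 members had an r of 0.425 with Malat1 (permutation p = 0.00781, adjusted 0.0130) and a rho of 0.391 (p = 0.0144, adjusted 0.0289), and an r of 0.312 without the 2 farthest mice. All these values share the array, and genes are not independent replicates.

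For 21 members the array held 45 further probe sets, and these did not always move as the one used. The genes named here were chosen after their values were seen. At 0 h and 8 h, 1 and 2 of the 45 were called, all of them on Psme4, and 0 were at 72 h and 7 d, beside 1.64%, 2.29%, 0.0055% and 1.03% of all genes on the probe set used. Averaged over the 4 times 6 were called, on Psme4 (3), Psme3, Psmb3 and Psmd11, beside 7.9% of all genes. Psmd11 was lower by -0.14 ± 0.031 (adjusted p = 0.000721) on the further probe set called, in the direction of the one used. It had 8 probe sets in all, and its remaining further ones were not called at any time or on average. Psmb3, called higher by 0.098 ± 0.027 (adjusted p = 0.00851) on 1 probe set, had an average of -0.041 on the one used. At 8 h its mean was 10.59 in Ctrl and 10.75 in CIE mice on the former, and 11.43 and 11.37 on the one used. Psme3, the nuclear activator, was higher by 0.19 ± 0.034 (adjusted p = 9.51e-05) on a further probe set and had 0.035 on the one used.

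Psme4 encodes a nuclear proteasome activator that acts on acetylated histones. The probe set used, with a mean of 10.51 over all mice, had differences of 0.12 at 0 h (adjusted p = 0.145) and between 0.0061 and 0.029 at the later times. On a probe set with a mean of 9.73 its level at 0 h was 9.57, 9.61 and 9.70 (lowest, median and highest) in Ctrl and 9.70, 9.95 and 10.04 in CIE mice. All CIE mice were above all Ctrl mice, the nearest by less than the rounding, and the difference was 0.29 ± 0.067 (adjusted p = 0.00711). Of all genes, on the probe set used for each, 1.63% separated in either direction at 0 h. At 8 h, where the groups overlapped, it was again 0.29 (adjusted p = 0.00599), and averaged over the 4 times 0.24 ± 0.033 (adjusted p = 1.78e-06). On the probe set with a mean of 7.77, Ctrl mice at 8 h had 7.29, 7.55 and 7.65 and CIE mice 7.92, 8.02 and 8.14. The groups were fully apart, as 3.62% of all genes were in either direction at 8 h, and the difference was 0.54 ± 0.11 (adjusted p = 0.00124).

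Another Psme4 probe set, with a mean of 6.00, had a negative difference. Its level over the 4 times was 5.34, 6.30 and 6.89 (lowest, median and highest) in the 24 Ctrl mice and 5.26, 5.66 and 6.59 in the 24 CIE mice, which overlapped. The average difference was -0.43 ± 0.079 (adjusted p = 8.75e-05). Its deviations within groups had an r of 0.781 with those of Malat1 over 48 mice (permutation p = 1e-05, the smallest 100000 permutations can give, adjusted 0.0001) and a rho of 0.782 (p = 1e-05, adjusted 0.0001), and 0.733 without the 2 farthest mice. For the probe set with a mean of 9.73, r was -0.453 (permutation p = 0.00732, adjusted 0.0130) and rho -0.349 (p = 0.0279, adjusted 0.0464). For that with a mean of 7.77, r was 0.208 (permutation p = 0.149, adjusted 0.213) and rho 0.253 (p = 0.0910, adjusted 0.130). Psme4 had 6 probe sets in all, and those not drawn were not called at any time or on average. Over the 4 times 1 of these had means of 8.03 in Ctrl and 8.12 in CIE mice, and the other 7.05 and 7.22. The part of each transcript of Psme4 in these values was not tested, since the probes' positions were not analysed here.

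**Figure D5:**
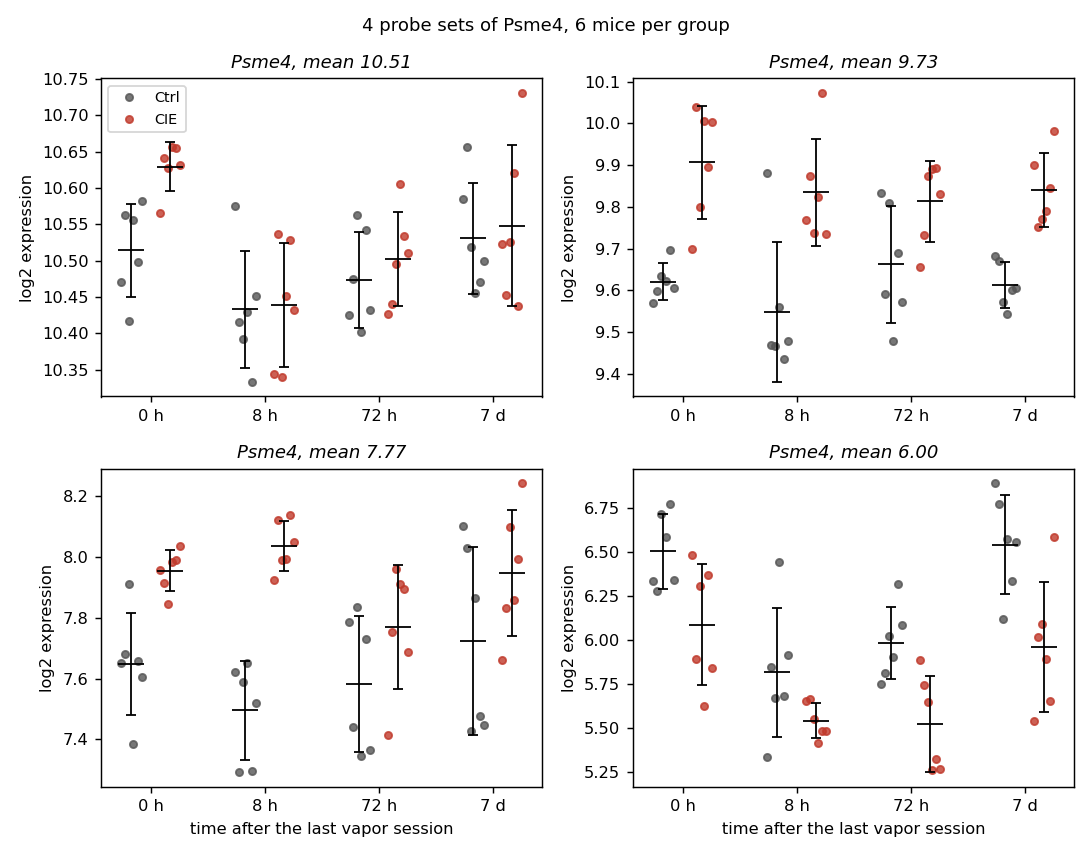
Log2 expression (vertical axes) on 4 probe sets of Psme4 in each mouse, by time after the last vapor session (horizontal axes), for Ctrl (grey) and CIE (red) mice, with bars for mean and SD of 6 mice. At 8 h the probe set with a mean of 7.77 runs from 7.29 to 7.65 in Ctrl and 7.92 to 8.14 in CIE mice, while the groups overlap on that with a mean of 10.51.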

How the data were processed

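Expression was measured in 48 hippocampi with 1 Affymetrix array each. The deposited values are log2 expression made by the authors with RMA: background correction and quantile normalization ran within each hybridization batch, quantile normalization then ran over all arrays, and ComBat removed the batch. Versions of these tools were not stated. Batch removal can shrink true differences tied to batch. Array medians lay between 6.601 and 6.627, array correlations between 0.974 and 0.998, and the number of arrays limits precision.

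Of 45037 probe sets, 34945 carried 1 symbol, 932 several and 9160 none. Each gene took its probe set of highest mean, and 38 of the 40 members had a mean of at least 6 with no filter applied. All 40 matched RefSeq. A limma model (3.58.1, R 4.3.3) held 1 mean per group over 48 arrays, followed by lmFit and eBayes, with two-sided tests and Benjamini-Hochberg adjustment over all probe sets. Python 3 scripts with seeded permutations, within groups for correlations, gave the rest, and the fit was tested on simulated data. Hybridization sets were rebuilt from the values, by joining arrays that share at least 5 values equal within 1e-08. They numbered 6 and held 47 arrays, with Ctrl 0 h mouse 2 in none, so fits with sets drop that array. Its values have up to 6 decimals and those of the other arrays up to 9, so few could be equal within 1e-08. Its absence from the sets therefore does not show that it was normalised apart. Members, gene lists, motifs and correlations were chosen with earlier results of these data known. Genes named were those called, the 2 of smallest F p per class, the interferon-induced genes with their counterparts, and the highest and lowest at each time; others were chosen after their values were seen. Alternatives were sets as a block, repeated quantile normalization, a filter on dim probe sets, probe set means, fits of single times, an intensity trend with robust prior, an FDR of 0.05 and leaving out each mouse.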

Additional observations from a re-analysis of the deposited data

Results flagged for a closer look

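Of 208 sets of 6 values examined (the named genes, Psmb8, Psmb9 and the class means in each group), 9 held 1 mouse far from the others, where chance alone gives about 1 in 20. Ctrl mice at 8 h held 4 of them. The mean of the 19S ATPases was 11.35 and that of the 19S non-ATPases 10.89 in Ctrl mouse 4, the beta-ring mean was 10.35 in Ctrl mouse 42, and Psmc4 was 11.42 in Ctrl mouse 42, where the nearest other mouse had 11.24. In CIE mouse 35 at 72 h, Psme1 was 10.30 and the activator mean 9.97, both the highest of their group. Psmb7 was lowest at 9.10 in Ctrl mouse 6 at 72 h and at 9.18 in CIE mouse 7 at 7 d. Psme4 was lowest at 10.57 in CIE mouse 11 at 0 h.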

How the results depend on the processing

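Mouse numbers in the labels pair no animals between groups, but the hybridization sets each hold 1 mouse per group, except 1 set without a Ctrl mouse at 0 h, so mice were matched within sets by fitting the sets as a block. The 2 calls at 8 h were the least stable count: 1 with hybridization sets as a block, where the block left Psmb2 called (adjusted p = 0.00067) and Psmd2 not (0.0121), 1 with the mean of each gene's probe sets, 0 when only the 12 arrays at 8 h entered the fit, 4 with a filter on dim probe sets or with an intensity trend and robust prior, 5 at an FDR of 0.05, and 1 to 3 when each mouse was left out in turn. Psmb2 at 8 h was lost only in the fit of the 12 arrays (adjusted p = 0.0105) and was called with every mouse left out (adjusted p 5.27e-05 to 0.000654). The 4 calls of the F test became 2 with the mean of the probe sets and 3 to 4 with a mouse left out. The 4 calls of the average became 7 at an FDR of 0.05 and stayed 4 with each mouse left out. At an FDR of 0.05, 1 member was called at 7 d and 1 for the change from 0 h to 8 h. Leaving out each mouse gave 0 to 0 calls at 0 h, 72 h and 7 d, in the Ctrl comparisons and in the changes of the CIE effect. With the mean of probe sets, the change in the CIE effect on Psmd2 from 0 h to 8 h turned from 0.11 to -0.012. The causes were not tested. With 6 mice per group, the standard error of a difference at 1 time ranged from 0.032 to 0.11 over the members.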
